A study of Homo sapiens with 4 samples.

Results

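Transcripts of 10 genes of the BCL2 family were measured in the neuroblastoma line SH-SY5Y, an established human cell line, with and without sodium nitroprusside (SNP), from which nitric oxide is set free. The genes were chosen by name as members of the family other than BAX, BBC3 and PMAIP1, which are known targets of the transcription factor p53. All 10 were among the 58243 genes listed in each table, and all 10 were counted well enough to be tested among 14759 genes. The control group comprised 2 libraries of cells that received no agent, and the SNP group comprised 2 libraries of cells exposed for 8 h; the sequenced dose is not given in the labels. The labels describe the treated line as differentiated with retinoic acid and each treatment as carried out in 3 wells, and they do not say whether the libraries named a and b came from separate cultures, so p-values measure the spread between these libraries, which may be technical.

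Proteins of the BCL2 family decide at the outer mitochondrial membrane whether a cell releases cytochrome c and starts its own dismantling. Anti-apoptotic members (here BCL2, BCL2L1, BCL2L2 and MCL1) bind and restrain the others, and effector members (here BAK1 and BOK) can open the membrane. BH3-only members (here BCL2L11, BID, BAD and BMF) sense stress and tip the balance through a short helix called the BH3 domain. With it they bind anti-apoptotic members, and some of them also bind effectors. In neurons and neuroblastoma cells BCL2 and MCL1 are known survival factors, and BCL2L11, better known as BIM, is a known trigger of death when trophic support is withdrawn.

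The summed gene counts lay between 5613144 and 8056550 per library, so that 3 counts correspond to between 0.377 and 0.531 CPM (counts per 1000000 counts of a library, scaled between libraries by the trimmed mean of M-values, TMM); this floor covers counting error only. Across all 14759 genes tested, 3861 differed between SNP and control at an adjusted p under 0.05, 2002 higher and 1859 lower. Of 10 sympathetic neuroblast markers, 9 were counted well enough to be tested, while TH was at 0 in every library. Of the 9, 2 rose and 5 fell, which is 77.8% against 26.2% of all genes tested. The largest fall was that of DBH, to 0.385 of control, and the largest rise that of CHGA, by 1.88-fold. The part of these changes in the results for the members was not tested. Of the retinoic acid response genes, CYP26A1 was at 0 in every library and RARB had 17 to 28 counts. Of the markers of other cells, PTPRC, HBB and MBP were at 0 in all libraries, and COL1A1 had 1 to 6 counts. Of 5 mesenchymal markers 3 were tested and 2 differed: COL1A2 had 32 and 11 counts without SNP and 10 and 7 with it (adjusted p 0.0263), and FOSL1 had 4 and 6 without and 23 and 29 with it (adjusted p 0.0101). The part of these in the results for the members was not tested. In bulk RNA, fewer cells of a kind and less RNA per cell cannot be told apart.

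Of the 10 members, 4 differed between SNP and control libraries. The anti-apoptotic genes BCL2L2 and MCL1 rose, by 1.93-fold and 1.36-fold, and the BH3-only genes BCL2L11 and BAD fell, to 0.759 and 0.4998 of control. The other 6, which include BCL2 and BCL2L1 and both effectors, did not pass the test. The 4 calls compare with 26.2% of all genes tested, the 2 rises with 13.6% and the 2 falls with 12.6%; the difference between the members and all genes was not tested. For 7 of the 10 members the values of the groups did not overlap, against 64% of all genes tested. The median log2 fold change was 0.028 over the 10 members and -0.0042 over all genes tested.

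The start regions of the members that fell are shown so that the motifs beside their starts can be compared with those of the other members. The RefSeq promoter table (GRCh38.p14) held 8 of the 10 members; MCL1 and BCL2L2 were not matched. For BCL2L11 the 250 bases before the start (chr2:111120664-111120913, plus strand) overlap no annotated exon. This RefSeq start lies downstream of the first base of the gene in GENCODE 29, so the window falls within the annotated bounds of the gene. Whether a longer transcript is spliced across the window was not looked at. For BAD the longest unbroken run of its 250-base window outside annotated exons of GPR137, on the opposite strand, is given (47 bases, chr11:64284764-64284810, minus strand). Capitals mark the GC box GGGCGG or its reverse complement CCGCCC and the CCAAT box CCAAT or its reverse complement ATTGG; both sequences run 5′ to 3′ in the direction of the gene.
BCL2L11: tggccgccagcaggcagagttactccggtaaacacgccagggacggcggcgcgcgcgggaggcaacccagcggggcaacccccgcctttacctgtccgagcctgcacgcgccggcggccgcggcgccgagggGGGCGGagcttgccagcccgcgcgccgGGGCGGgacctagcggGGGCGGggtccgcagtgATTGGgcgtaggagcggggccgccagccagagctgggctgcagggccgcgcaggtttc
BAD: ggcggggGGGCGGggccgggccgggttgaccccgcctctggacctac
BCL2L11 has 3 GC boxes and 1 CCAAT box in its window, and BAD has 1 of each in its full window. These motifs are not particular to the members that fell. A GC box was found in 6 of the 8 members, also in BAK1, BOK, BID and BMF, and in 42.6% of 35116 promoters; a CCAAT box was found in 5 of the 8 and in 32.0% of all. The short cyclic AMP response motif TGACG (reverse complement CGTCA), which lies within the full motif TGACGTCA, was found in BAD, BMF, BCL2 and BCL2L1 and in 21.2% of all promoters. The TATA box TATAAA (reverse complement TTTATA) was found in BCL2L1 and in 10.7% of all promoters. TGACGTCA (1.65% of all), the E-box CACGTG (6.34%) and the AP-1 site TGANTCA (6.57%) were in none of the 8 windows. A match is a run of letters and not a measured binding site.

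**Figure D1:**
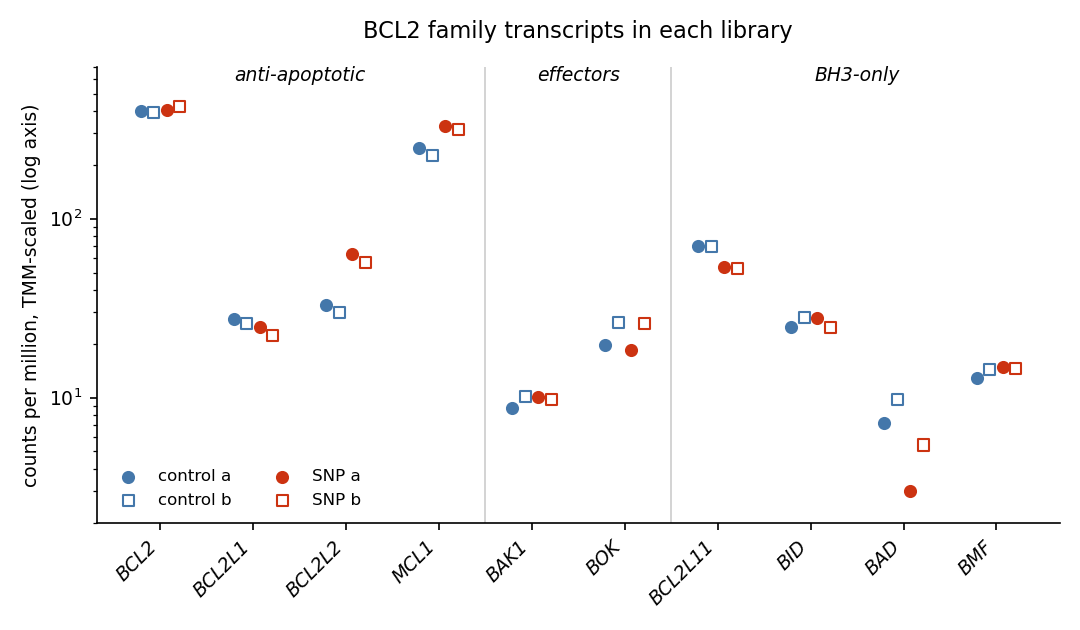
Normalised read counts of the 10 members in each library (CPM, log axis), by role; circles are libraries a, open squares libraries b, blue control and red SNP. BCL2L2 and MCL1 sit higher in both SNP libraries than in either control, and BCL2L11 and BAD sit lower.

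BCL2L2 encodes BCL-W, an anti-apoptotic protein with a known role in neurons and in spermatogenesis. It was counted 213 and 168 times in control a and b and 508 and 439 times in SNP a and b, which is 32.8 and 29.7 CPM against 63.8 and 56.8 CPM. Both SNP libraries were well above both controls. The mean rose from 31.3 ± 2.13 to 60.3 ± 4.96 CPM (SD, n = 2 each), a log2 fold change of 0.95 (SE 0.137) with an adjusted p of 4.02e-05. Every adjusted p is from the quasi-likelihood test of edgeR, adjusted by the Benjamini-Hochberg method over all genes tested, unless another test is named. Its log2 fold change stood at percentile 96.0 among the genes tested. This was the 1 member that passed under all 17 alternatives run for it, with log2 fold changes between 0.57 and 1.03.

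BCL2L2 (ENSG00000129473; chromosome 14, 23298790 to 23311759, plus strand; build GRCh38, annotation GENCODE 29) shares 813 of its 4189 exonic bases with BCL2L2-PABPN1, a readthrough gene that joins it to its downstream neighbour. That readthrough gene had 15 and 39 counts without SNP and 62 and 54 with it, and did not pass (log2 fold change 0.71, adjusted p 0.172). It passed without control b, at 1.67 and an adjusted p of 0.00363. With the counts of the readthrough gene added, BCL2L2 had a log2 fold change of 0.92 with an adjusted p of 3.38e-05. A further 206 bases overlap PPP1R3E on the opposite strand, which had 160 to 181 counts; the use of strand in the counting is not given in the sources used here.

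MCL1 encodes a short-lived anti-apoptotic protein whose loss alone kills many cell types. It was counted 1605 and 1279 times in control and 2639 and 2427 times in SNP libraries, which is 247 and 226 CPM against 331 and 314 CPM. The lowest SNP value exceeded the highest control value. The mean rose from 237 ± 14.4 to 323 ± 12.4 CPM (SD, n = 2 each), a log2 fold change of 0.45 (SE 0.0954; adjusted p 0.00154). With offsets on the base composition of transcripts, described further on, it was 0.14 and the call was lost (adjusted p 0.182). MCL1 (ENSG00000143384; chromosome 1, 150574551 to 150579738, minus strand) shares 2 of its 4371 exonic bases with another annotated gene, ADAMTSL4-AS1, which had 15 to 30 counts. Counts per gene do not separate its long form from the short splice form, which is known to act in the opposite way.

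BCL2, the founding member and an anti-apoptotic protein of mitochondria and endoplasmic reticulum, was counted 2609 and 2203 times in control and 3223 and 3259 times in SNP libraries. These correspond to 401 and 390 CPM in control and 405 and 421 CPM in SNP libraries. The SNP values lay just above the control values, and the difference was small: a log2 fold change of 0.062 (SE 0.0896; adjusted p 0.656), with a 95% interval of the fold from 0.917 to 1.19. With at least 2203 counts in every library, BCL2 had the smallest standard error of the 10 members.

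BCL2L1 encodes BCL-XL and, through another splice form, the pro-apoptotic BCL-XS, which are counted together here. It had 179 and 147 counts without SNP and 198 and 172 with it, or 27.5 and 26.0 CPM against 24.9 and 22.2 CPM. Both SNP values were below both control values, and the gene did not pass (log2 fold change -0.19, SE 0.164, adjusted p 0.438; 95% interval of the fold 0.694 to 1.11). Of its 3314 exonic bases 1424 overlap the antisense gene ABALON, which was at 0 in every library. Levels per length are given in TPM, the share of a gene among all transcripts of a library. The ratio of BCL2L2 to BCL2L1 in TPM was 0.941 and 0.904 in the controls and 2.03 and 2.02 in the SNP libraries. Counted alone, BCL2L2 was thus slightly the lower of these relatives in both controls and the higher in both SNP libraries. The readthrough gene BCL2L2-PABPN1 was at 6.96 and 21.2 TPM in the controls. With it added, BCL2L2 would be the higher in both controls as well.

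Both effectors were at similar levels in the groups. BAK1, which with BAX forms the pores that release cytochrome c, had 57 and 57 counts without SNP and 80 and 75 with it, or 8.77 and 10.1 CPM against 10.0 and 9.70 CPM. The groups overlapped, with a log2 fold change of 0.069 (SE 0.242; adjusted p 0.867). BOK, a relative of BAK1 that is bound by anti-apoptotic members only weakly, had 128 and 148 counts without SNP and 147 and 200 with it, or 19.7 and 26.2 CPM against 18.5 and 25.9 CPM. In each group library b was above library a, and the groups overlapped (log2 fold change -0.046, SE 0.195, adjusted p 0.893). The 95% interval of the fold was 0.741 to 1.49 for BAK1, which includes the folds of both MCL1 and BCL2L11, and 0.731 to 1.28 for BOK, which includes that of BCL2L11. BAK1 shares 91 of its exonic bases with GGNBP1, which was at 0 in every library, and BOK shares 201 with BOK-AS1, which had 0 or 1 count. The pseudogenes BAK1P1 and BAK1P2 were at 0 in every library.

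Among the BH3-only genes BCL2L11 and BAD fell. BCL2L11 encodes BIM, which binds all anti-apoptotic members and can activate the effectors. It was counted 456 and 397 times in control and 428 and 409 times in SNP libraries, which after scaling is 70.1 and 70.3 CPM against 53.7 and 52.9 CPM. The replicates of each group lay within 1 CPM of each other and the groups were separate. The log2 fold change was -0.40 (SE 0.119; adjusted p 0.0173). The call was lost without control a (adjusted p 0.117) and without control b (0.118), although the log2 fold change stayed at -0.40 in both, and it was lost with DESeq2's Wald test (Benjamini-Hochberg adjusted p 0.0633). BCL2L11 (ENSG00000153094; chromosome 2, 111119378 to 111168447, plus strand) shares 727 of its 6658 exonic bases with MIR4435-2HG on the opposite strand, which had 12 to 21 counts.

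BAD encodes a BH3-only protein that binds BCL2, BCL-XL and BCL-W and is held in the cytosol by 14-3-3 proteins when survival signals phosphorylate it. It was the least counted member, with 47 and 55 counts without SNP and 24 and 42 with it, or 7.23 and 9.74 CPM against 3.01 and 5.43 CPM. Both SNP values were below both controls, but the replicates of each group were far apart. The mean fell from 8.48 ± 1.77 to 4.22 ± 1.71 CPM (SD, n = 2 each), a log2 fold change of -1.001 (SE 0.331; adjusted p 0.0293). Without SNP a the log2 fold change was -0.63 (adjusted p 0.230) and without control b -0.78 (0.178); DESeq2's Wald test gave a Benjamini-Hochberg adjusted p of 0.122. BAD (ENSG00000002330; chromosome 11, 64269830 to 64284704, minus strand) shares 404 of its 1708 exonic bases with GPR137, a gene on the opposite strand (64270062 to 64289500) that overlaps most of BAD. GPR137 had 146 to 185 counts and a log2 fold change of -0.40 (adjusted p 0.0969). In the shared bases, reads of either could be counted for the other.

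BID and BMF did not pass. BID, which is cut by caspase-8 to its active form, had 161 and 158 counts without SNP and 221 and 191 with it, or 24.8 and 27.98 CPM against 27.7 and 24.7 CPM. The groups overlapped fully, with a log2 fold change of -0.0053 (SE 0.164; adjusted p 0.985; 95% interval of the fold 0.787 to 1.26). BMF, a BH3-only protein tethered to myosin motors through dynein light chain 2, had 84 and 81 counts without SNP and 118 and 112 with it, or 12.9 and 14.3 CPM against 14.8 and 14.5 CPM. Its SNP values were just above its controls (log2 fold change 0.11, SE 0.204, adjusted p 0.746; 95% interval of the fold 0.803 to 1.44). BMF shares 461 exonic bases with BMF-AS1, which was at 0 in every library.

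**Figure D2:**
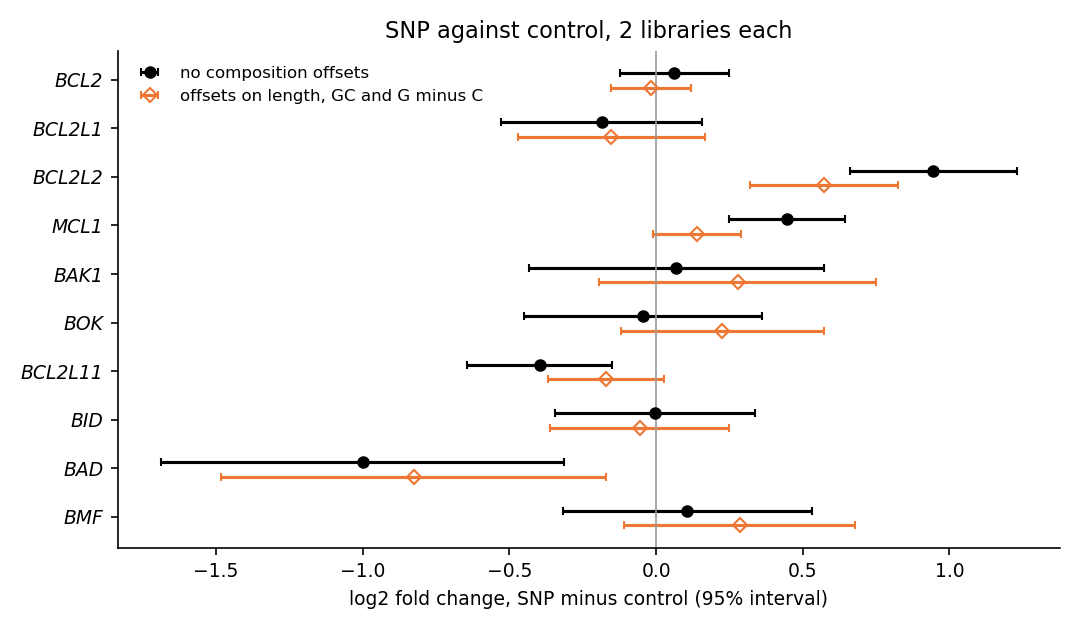
Log2 fold change of each member, SNP minus control, with 95% intervals (2 libraries per group). Filled circles are the edgeR estimates without offsets, and open diamonds the estimates after per-library offsets on gene length, GC content and guanine minus cytosine content; with offsets BCL2L2 (0.57) alone has an adjusted p under 0.05.

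Base composition of the transcripts moved with the fold changes. Across 14724 genes tested with known composition, which are not independent replicates, the log2 fold change had a Spearman correlation of 0.4805 with guanine minus cytosine content; these genes share the same 4 libraries. The members that rose had the most guanine relative to cytosine: 5.02 percentage points in BCL2L2 (percentile 94.2 of genes tested) and 4.43 in MCL1 (percentile 91.3). BCL2L11 was at -1.47 points (percentile 19.2), while BAD was near balance at 0.22 (percentile 37.9). BOK at -1.83 and BMF at -1.03 points, on either side of BCL2L11, did not pass the test. With offsets on length, GC and guanine minus cytosine content MCL1 was at a log2 fold change of 0.14 (adjusted p 0.182), BCL2L11 at -0.17 (0.220) and BAD at -0.83 (0.0776), none past the threshold. BCL2L2 was then at 0.57 with an adjusted p of 0.00523. The part of composition in the calls of MCL1, BCL2L11 and BAD was not tested further.

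**Figure D3:**
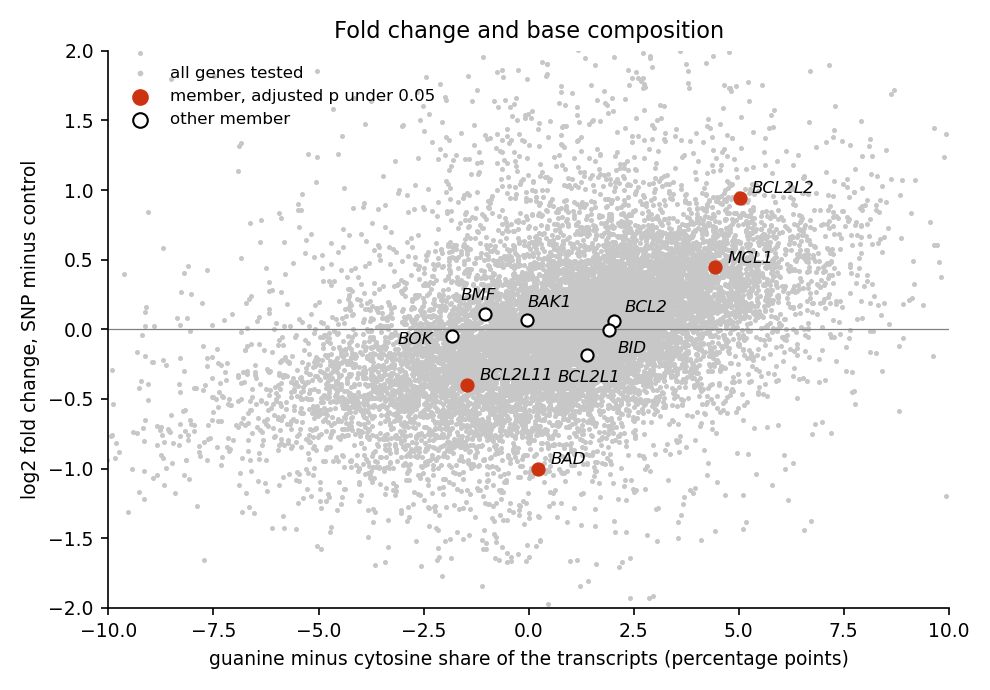
Log2 fold change, SNP minus control, against the guanine minus cytosine share of each gene's transcripts in percentage points; grey points are the genes tested (210 lie outside the axes), red points the members with an adjusted p under 0.05 and open points the other members. MCL1 and BCL2L2 lie at the guanine-rich side, and BAD lies near balance.

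The order of the members by level, in TPM, was led by MCL1 in every library. In control libraries MCL1 was at 255 ± 12.1 and BCL2 at 159 ± 1.03 TPM (SD, n = 2 each), followed by BCL2L11 at 49.7 ± 0.754. BOK, at 40.0 ± 8.56, had values on either side of BCL2L1, at 38.1 ± 0.996, and BCL2L2 came next at 35.2 ± 1.92. BID, BAD and BAK1, between 27.99 and 20.1 TPM, each overlapped with the next, and BMF was lowest at 11.8 ± 1.03. In SNP libraries MCL1 was at 378 ± 2.18 and BCL2 at 180.02 ± 11.03 TPM, and BCL2L2, at 73.6 ± 3.66, had moved from the sixth to the third place. These places are those of BCL2L2 without the readthrough gene BCL2L2-PABPN1. TPM values are not scaled by TMM, so their differences between groups are not the tested fold changes. For BCL2 the mean went from 159 to 180.02 TPM, against 396 to 413 CPM. BOK (42.1 ± 11.3) and BCL2L11 (41.0 ± 0.876) overlapped there, as did BMF (13.8 ± 0.228) and BAD (12.8 ± 5.54) at the low end.

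Summed by role, the 4 anti-apoptotic genes held 499 and 476 TPM in control and 666 and 671 TPM in SNP libraries. The 4 BH3-only genes held 106 and 120 TPM in control and 94.1 and 101 TPM in SNP libraries, and the effectors 52.4 and 67.8 against 56.8 and 73.0 TPM. Among these members the anti-apoptotic sum was higher and the BH3-only sum lower in both SNP libraries, while the effector sums overlapped. The sums leave out the BH3-only genes BBC3 and PMAIP1 and the effector BAX. All were higher in both SNP libraries, and BBC3 alone passed the test. BBC3 was at 9.10 and 5.34 TPM in control and 21.4 and 29.2 TPM in SNP libraries. PMAIP1 was at 18.6 and 22.3 against 30.1 and 31.2 TPM, and BAX at 48.1 and 47.9 against 62.5 and 75.5 TPM. The sums therefore describe the named members and not all BH3-only or effector genes of the family. With BBC3 and PMAIP1 added, the BH3-only sum would not be lower in the SNP libraries. With BAX added, the effector sum would be higher in both SNP libraries than in either control. As a level, the ratio of the anti-apoptotic to the BH3-only sum was 4.70 and 3.97 in control and 7.07 and 6.61 in SNP libraries. This ratio also leaves out BBC3 and PMAIP1, and with them it would be lower in every library. The calls of MCL1 and BCL2L11 were lost with the composition offsets. MCL1 exceeded BCL2L11 by 5.36-fold and 4.91-fold in the controls and by 9.39-fold and 9.04-fold in the SNP libraries. TPM values are shares of a library, and no test was made of these sums, since the members were chosen by name and MCL1 makes up most of the anti-apoptotic sum (52.4% in control and 56.6% in SNP libraries on average).

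**Figure D4:**
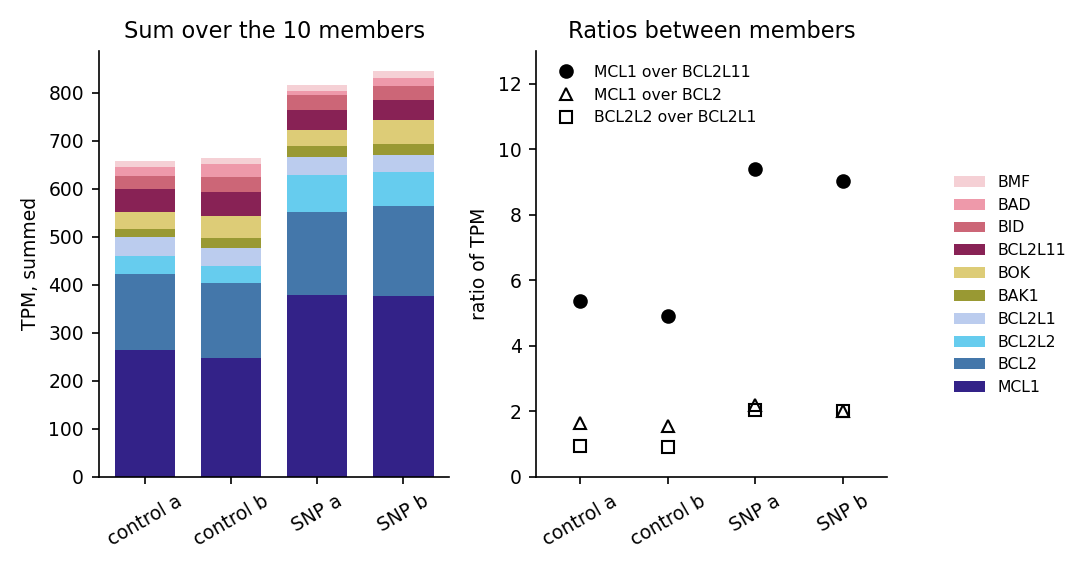
Left, TPM of the 10 members stacked for each library, with MCL1 at the base. Right, ratios of TPM between members in each library. MCL1 over BCL2L11 is 5.36 and 4.91 in the controls and 9.39 and 9.04 in the SNP libraries. BCL2L2 over BCL2L1 passes from below to above 1, with the readthrough gene BCL2L2-PABPN1 left out.

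Among 13 further genes of the family, 8 could be tested, and 1 rose and 1 fell, which is 25% against 26.2% of all genes tested. BBC3, the p53 target that encodes the BH3-only protein PUMA, had 32 and 16 counts without SNP and 86 and 109 with it, and rose by 1.66 on the log2 scale (SE 0.299; adjusted p 3.42e-04). BAX and PMAIP1, which encode an effector and the BH3-only protein NOXA, did not pass, at 0.40 (adjusted p 0.0613) and 0.47 (0.131); BAX passed under 6 of 16 alternatives. BNIP3, a mitophagy receptor, fell by 0.55 (adjusted p 0.00706). Without control b its log2 fold change was -0.32 and the call was lost. BIK and BCL2A1 were at 0 in every library, and BCL2L10 had 1 count in each.

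Of 18 genes for release from mitochondria and caspases, all tested, 3 rose and 2 fell, which is 27.8% against 26.2% of all genes tested, with a median log2 fold change of 0.11. APAF1, the scaffold of the apoptosome, went from 61.1 and 62.3 CPM in control to 99.8 and 90.8 CPM in SNP libraries, a log2 fold change of 0.63 (SE 0.116; adjusted p 4.18e-04). CYCS, which encodes cytochrome c, rose by 0.37 (adjusted p 0.0320), and its call was lost with the composition offsets (0.911). The call was also lost without control a (0.274), without control b (0.0692) and without SNP a (0.208). BIRC5, which encodes the mitotic and anti-apoptotic protein survivin, fell by 0.66 on the log2 scale (adjusted p 4.69e-04). ENDOG, a mitochondrial nuclease, fell by 1.16 from 8.15 and 7.79 to 3.39 and 3.75 CPM (adjusted p 0.0101). The call of ENDOG was lost without SNP a (log2 fold change -1.09) and with DESeq2's Wald test (Benjamini-Hochberg adjusted p 0.0609).

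Partners and regulators of the members were 26 genes, of which 25 were tested; 4 rose and 5 fell, which is 36% against 26.2% of all genes tested, with a median log2 fold change of -0.043. DYNLL2, the dynein light chain that tethers BMF, had 514 and 418 counts without SNP and 1708 and 1404 with it. Its mean went from 76.5 ± 3.57 to 198 ± 23.2 CPM (SD, n = 2 each), a log2 fold change of 1.37 (SE 0.113; adjusted p 3.50e-08). DYNLL1, the light chain that tethers BIM, fell by 0.65 (adjusted p 0.0201), with 29.2 and 38.8 CPM in control and 26.7 and 16.4 CPM in SNP libraries. That call was lost without control b (-0.44, adjusted p 0.201) and without SNP b (-0.34, 0.183). Of 3 listed genes of ubiquitin ligases that mark MCL1 for decay, FBXW7 rose by 0.59 (adjusted p 3.67e-04, and 0.0591 with the composition offsets). HUWE1 fell by 0.47 (adjusted p 4.02e-04). Its call was lost with the read totals implied by RPKM, described further on (-0.40, adjusted p 0.0596). BTRC, looked at after its values were seen, did not pass (log2 fold change 0.053, adjusted p 0.775). PIM1, a kinase that phosphorylates BAD, fell by 0.75 on the log2 scale (adjusted p 0.00288). AKT1, another kinase of BAD that was looked at after its values were seen, rose by 0.30 (adjusted p 0.0461), and PIM2 and PIM3 did not pass (-0.37 and 0.43).

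**Figure D5:**
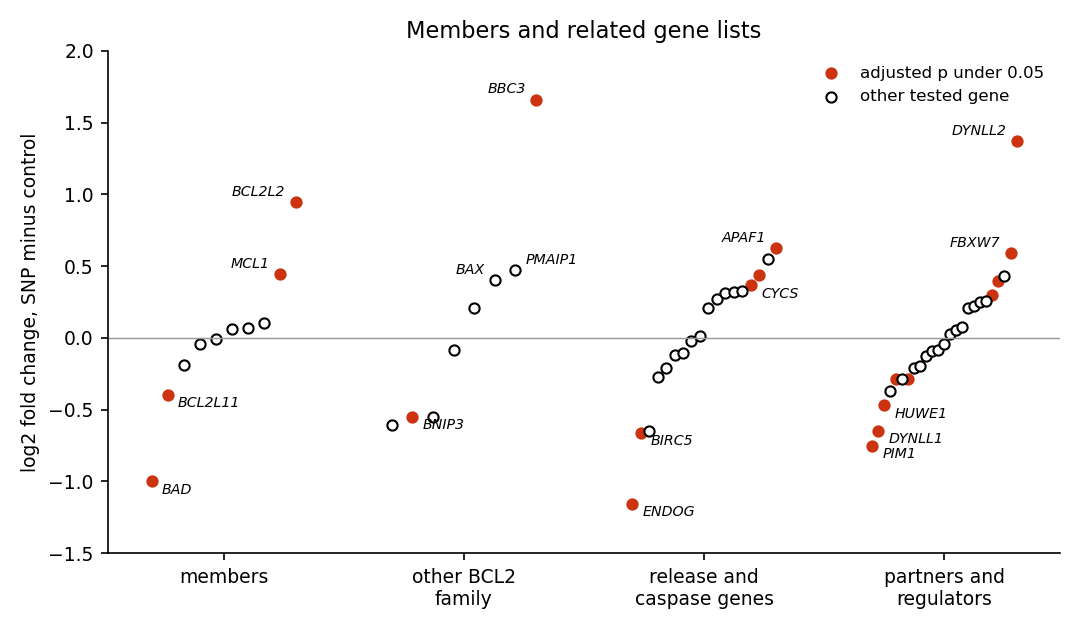
Log2 fold change, SNP minus control, of the tested genes of the members and of each related list, sorted within a list; red points have an adjusted p under 0.05. DYNLL2 (1.37) and BBC3 (1.66) are the highest points, and ENDOG (-1.16) and BAD (-1.001) the lowest.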

How the data were processed

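RNA of 2 control and 2 SNP libraries was sequenced with 75 bp reads at a labelled 40 M reads per sample, per the labels; the genome build was GRCh38, per the submitters' processing notes, and the aligner, counter and annotation are not given in the sources used here. The count column deposited by the authors holds whole numbers, which were assumed to be reads per gene without any scaling. The TPM values, also deposited by the authors, sum to 1000000 per library. The RPKM column deposited by the authors, per the file headers, served to recover gene lengths and read totals. These implied totals were 50.6 M and 48.7 M in control a and b and 60.6 M and 62.0 M in SNP a and b. They exceed the labelled 40 M. The summed counts were far lower, at 6.54 M and 5.61 M in control and 8.06 M and 7.65 M in SNP libraries. The reason for this gap was not tested. The length implied for each member equals its exon length in GENCODE 29, from which positions and base composition were taken; 57980 of 58243 identifiers were found there. Counts were filtered by filterByExpr (minimum count 10, minimum total 15), scaled by TMM and tested in edgeR 4.0.16 (R 4.3.3) by the quasi-likelihood test, two-sided, with no covariate, Benjamini-Hochberg adjustment over all genes tested and a threshold of 0.05. Standard errors were derived from fold changes and F statistics. The scripts were tested on simulated counts. For composition offsets, a lowess curve (span 0.5, 3 iterations) was drawn in each library. The 16 alternatives were a filter at any count above 0 or at a mean of 50, DESeq2 size factors, no TMM, library sizes without the 20 most abundant genes, read totals implied by RPKM, the DESeq2 1.42.0 Wald test, limma 3.58.1 voom, the replicate block, offsets on length and GC, these with guanine minus cytosine content, the latter with the block, and each of 4 libraries left out; for BCL2L2 a further one added the readthrough counts. A threshold of 0.01 was tried for counts of calls. Members and lists were chosen with earlier results of these data known. All members were named, and of each list up to 5 genes with the largest change among those that passed, had a mean of at least 5 CPM and groups that did not overlap; 1 gene of the release and caspase list that met this rule is not reported here.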

Additional observations from a re-analysis of the deposited data

How the results depend on the processing

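The 4 members called became 2 at a threshold of 0.01, 2 with DESeq2's Wald test, 1 with offsets on length, GC and guanine minus cytosine content, and 1 with these offsets and the replicate block; leaving out each library in turn gave 2 to 4. Over all genes, 3861 calls became 2224 at 0.01, 2415 with DESeq2, 2740 (18.6% of genes tested) with the fuller offsets and 2735 with these and the block, and 2471 to 4096 with a library left out. With read totals implied by RPKM 63.1% of calls were higher against 51.9%, and all genes had a median of 0.064 (log2). The replicate block left the same number of members called, 4, and gave 4487 calls over all genes; differences between a and b correlated between groups at 0.044 over genes, so the letters were not taken as a pairing. Over all alternatives MCL1 ranged from 0.14 to 0.51 (adjusted p 1.31e-04 to 0.202), BCL2L11 from -0.42 to -0.17 (0.00455 to 0.247) and BAD from -1.48 to -0.63 (0.00915 to 0.230). Besides the settings named with them above, BCL2L11 lost its call with the read totals implied by RPKM (-0.33) and BAD with offsets on length and GC (-0.76). Members that were not called changed sign near 0: BCL2 was at -0.018 with the guanine minus cytosine offsets, alone and with the replicate block; BOK was at 0.024 with RPKM totals, 0.15 with length and GC offsets, and 0.23 and 0.22 with the fuller offsets without and with the block; BID was at 0.067 with RPKM totals and 0.025 with length and GC offsets. With a library left out BAK1 ranged from -0.032 to 0.17, BOK from -0.31 to 0.18 and BID from -0.093 to 0.083. Members called were 3 with the filter at a mean of 50 counts, with RPKM totals and with length and GC offsets, and 4 with no filter, DESeq2 size factors, no TMM, the library sizes without the most abundant genes and limma-voom. Depth limits BAD most, which had 24 to 55 counts, and it could not be tested with a filter at a mean of 50 counts.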

Other observations

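PABPN1, the gene downstream of BCL2L2 that the readthrough transcript joins to it, was looked at after its values were seen. It encodes a nuclear poly(A)-binding protein. It was counted 432 and 316 times in control and 1032 and 777 times in SNP libraries, which is 66.4 and 56.0 CPM against 129.6 and 100.5 CPM. Both SNP libraries were above both controls, with a log2 fold change of 0.91 (SE 0.131; adjusted p 3.97e-05 by the quasi-likelihood test of edgeR, Benjamini-Hochberg adjusted), close to the 0.95 of BCL2L2. Its transcripts hold 5.10 percentage points more guanine than cytosine, against 5.02 for BCL2L2. The part of composition in this result was not tested for PABPN1.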
